A study of Mus musculus with 6 samples.

Results

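The mouse annotation holds genes whose symbols end in -ps with or without a number, a suffix given to pseudogenes named after a parent gene, and 126 of them made up the set described here. They were selected on measured values, as the -ps symbols with a mean of at least 10 expected counts over 6 RNA-Seq libraries, from 1435 such symbols among 49671 genes. The mean was taken over both groups. A gene could still pass through 1 group alone, as Ap3s1-ps2 and Smt3h2-ps4 did through the RvD1 libraries. Libraries came from muscle stem cells (MuSCs) of C57BL/6 female mice that were 4 to 6 months old, 3 given RvD1 and 3 given vehicle. RvD1 (resolvin D1) is a lipid mediator made from an omega-3 fatty acid, and vehicle was 0.1% ethanol. All 6 mice had both TA muscles injected with 50 μL of 1.2% BaCl2, which kills myofibers, and the 2 muscles of a mouse were pooled at day 3, so that each library is 1 mouse and no uninjured group is used here. The sort kept cells with CXCR4 and β1-integrin and removed those with Ter119, CD45, Sca-1, CD11b, and, according to the sample labels, CD31. It enriches MuSCs without a reporter, and in such bulk RNA fewer expressing cells and less RNA per cell cannot be told apart.

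A processed pseudogene arises when the mRNA of a parent gene is copied into DNA and inserted elsewhere in the genome, which leaves a copy without introns and usually without a promoter of its own. Genes with abundant mRNA, above all those of ribosomal proteins, have left the most copies. A short read from the parent can match such a copy equally well, and RSEM, the program the authors used to quantify genes, divides such a read among the matching genes by estimated probabilities, which leaves fractional counts.

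The label of processed pseudogene held for most members. GENCODE annotation on GRCm38 lists 101 of the 126 as processed pseudogenes, of which 5 are marked as transcribed. Another 11 are transcribed unprocessed pseudogenes, 4 are unprocessed, 3 are transcribed unitary, and 1 is polymorphic. The remaining 6 are annotated as protein-coding, and they include Rpl10-ps3, Nutf2-ps1, Rpl9-ps6, and Rps12-ps3. A single exon is annotated for 108 members. A parent, the gene whose symbol stands before -ps, was found in the files for 105 members, which have 87 distinct parents.

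Stretches of 76 bases, the length of the reads, show how far a read can tell these genes from their parents. They are shown for a copy with no difference, for copies with 1 difference that recur in the results, and for 2 copies with more. Each pair gives the member and then the coding sequence of the parent, 5′ to 3′ on the strand of the gene, with the bases that differ in capitals. Rps23-ps1 (chr3:37714740-37714815, plus strand) copies Rps23, which encodes a protein of the small ribosomal subunit, and its first 76 bases have 0 differences.
Rps23-ps1: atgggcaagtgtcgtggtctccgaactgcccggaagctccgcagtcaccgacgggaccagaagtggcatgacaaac
Rps23: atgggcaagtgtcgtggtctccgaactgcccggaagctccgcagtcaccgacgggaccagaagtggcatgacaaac
Rab11b-ps2 (chr19:7398889-7398964, minus strand) copies Rab11b, a small GTPase of recycling endosomes, and 1 mismatch was found over the 654 aligned bases.
Rab11b-ps2: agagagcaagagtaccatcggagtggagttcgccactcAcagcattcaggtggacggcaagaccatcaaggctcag
Rab11b: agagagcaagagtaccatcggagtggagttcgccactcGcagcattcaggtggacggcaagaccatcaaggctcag
Rpl9-ps6 (chr19:32466249-32466324, minus strand) also differed from its parent, a gene of the large ribosomal subunit, at 1 aligned base.
Rpl9-ps6: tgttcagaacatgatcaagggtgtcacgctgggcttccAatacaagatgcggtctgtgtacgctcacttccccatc
Rpl9: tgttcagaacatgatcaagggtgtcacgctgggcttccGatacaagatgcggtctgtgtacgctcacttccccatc
Nudc-ps1 (chr8:29286906-29286981, minus strand) copies Nudc, which encodes a partner of the dynein motor, with 2 mismatches and 4 gap bases in all.
Nudc-ps1: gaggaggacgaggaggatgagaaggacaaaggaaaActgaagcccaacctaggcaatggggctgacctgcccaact
Nudc: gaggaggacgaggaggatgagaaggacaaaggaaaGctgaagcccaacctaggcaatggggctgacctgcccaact
Rpl35a-ps2 (chr1:181242128-181242203, minus strand) copies another gene of the large ribosomal subunit.
Rpl35a-ps2: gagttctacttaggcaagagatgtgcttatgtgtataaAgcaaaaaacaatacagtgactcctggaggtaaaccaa
Rpl35a: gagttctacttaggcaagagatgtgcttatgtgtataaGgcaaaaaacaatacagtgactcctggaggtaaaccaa
Tubb4b-ps1 (chr5:7180508-7180583, plus strand) copies Tubb4b, a beta tubulin, and 4 bases differ in the window with the most differences.
Tubb4b-ps1: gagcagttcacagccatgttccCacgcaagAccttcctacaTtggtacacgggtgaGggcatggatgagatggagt
Tubb4b: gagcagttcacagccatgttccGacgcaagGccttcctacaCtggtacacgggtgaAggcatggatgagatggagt
Ldha-ps2 (chr4:119335039-119335114, minus strand) copies Ldha, which encodes a lactate dehydrogenase subunit, and 9 bases differ in its window.
Ldha-ps2: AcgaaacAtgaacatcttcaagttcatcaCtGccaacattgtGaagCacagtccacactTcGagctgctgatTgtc
Ldha: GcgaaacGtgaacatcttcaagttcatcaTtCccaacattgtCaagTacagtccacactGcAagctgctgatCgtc

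Most members shared a large part of their sequence with other genes. A median of 69.7% of the 76-base windows of a member was present without mismatch in another annotated gene, and 64.0% in the parent itself. Genes that overlap the member in the genome are not counted as another gene here. So defined, all windows were shared in 25 members, and none in 6. Windows in an overlapping gene were a separate share, which was 2.15% for Ube2d-ps, 1 of the 6, and 96.0% for Cbx3-ps6. By alignment, the 103 members that could be aligned to a parent had a median identity of 99.3%, and 21 had an identity of 100%. The parent was often not the only match, since 30 members shared windows with 10 or more genes, among them Rps12-ps3 with 21. The other 21 members have no parent symbol in the files, and 5 of them had no window in another gene. For 3 with a large overlap, a gene that holds most of the windows is given here. Of the windows of Eif4a-ps4, 93.4% were found in Eif4a1, an RNA helicase of translation initiation. For Smt3h2-ps4, 91.5% were found in Sumo2, a ubiquitin-like modifier. Dynlt1-ps1 shared windows with 4 genes, and all its windows were found in Dynlt1c, a dynein light chain gene. Dynlt1c had a mean of 39.7 counts, whereas the related genes Dynlt1b and Dynlt1f had 3356 and 2898. Which gene its reads came from was not tested.

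Fractional counts were found in nearly every library value of the members. Of 743 values above 0, 94.5% differed from a whole number by at least 0.005 counts, compared with 99.4% for the parents, 96.3% for 523 processed pseudogenes without a -ps symbol, and 28.8% for other protein-coding genes at the same minimum. All values were fractional for 110 members. Counts were whole in every library for 5 members, Ppp4r1l-ps, Slc2a4rg-ps, Cdk3-ps, Zfp133-ps, and Vamp7-ps, and each of the 5 had 0% of its windows in another gene. Rpl35a-ps2, Rpl35a-ps3, Rpl35a-ps4, and Rpl35a-ps6 lie on 4 chromosomes, and the 76 bases printed above for the first are the same in all 4. Each of the 4 was given 13.6, 19.2, and 7.40 expected counts with RvD1 and 14.5, 10.4, and 12.3 with vehicle, so that they are a single measurement listed 4 times.

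**Figure D1:**
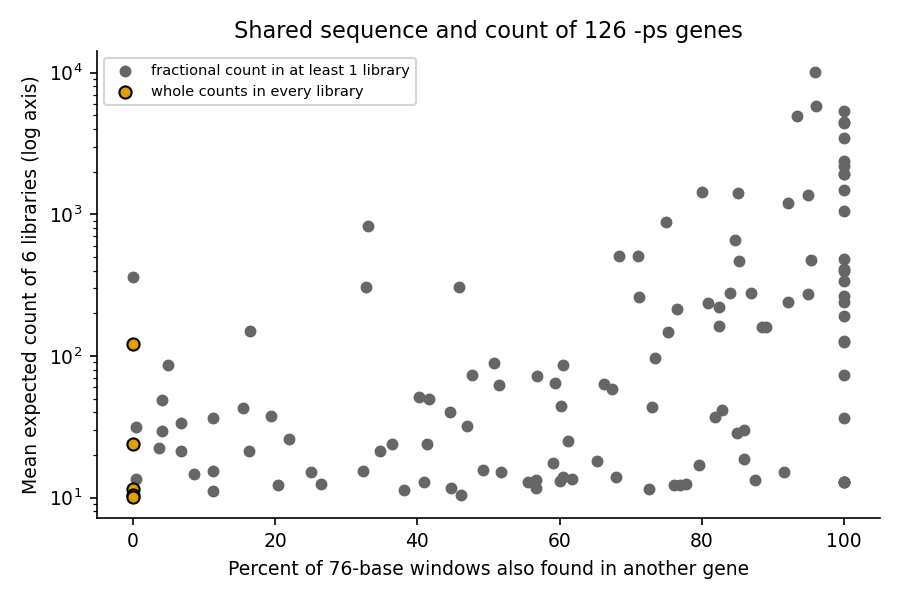
Mean expected count over 6 libraries (log axis) against the percent of 76-base windows also found in another gene, 1 point per member (n = 126), with the 5 members that have whole counts in every library marked. Those 5 sit at 0%, and 7 of the 10 members with the highest counts sit at 100%. Genes that overlap the member are not counted.

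The counts were concentrated in a few members. Mean counts ranged from 10.2 to 10099 with a median of 49.3, and the 10 highest members held 66.3% of all counts of the set. Of these 10, 7 had all windows in another gene, and the lowest share was 93.4%. Across the 126 members the share of windows in another gene and the mean count had a Spearman correlation of 0.51, a description across genes that share libraries, and to some extent reads. The highest member, Rpl10-ps3 (chromosome 9, 50344201 to 50344968), is in no other annotated gene. It was followed by Nutf2-ps1 at 5856, Rps23-ps1 at 5370, Eif4a-ps4 at 4960, Rpl15-ps3 at 4478, Rps6-ps4 at 4406, Tpt1-ps3 at 3471, Rpl31-ps8 at 2381, Rps13-ps2 at 2175, and Ube2n-ps1 at 1937 mean counts. Beside the ribosomal proteins, their parents include Tpt1, the translationally controlled tumor protein gene, Nutf2, a carrier of nuclear import, and Ube2n, a ubiquitin-conjugating enzyme. Just inside the minimum were Zfp133-ps at 10.5, Tubb4b-ps1 at 10.5, and Vamp7-ps at 10.2 mean counts, and just outside were Eif3s6-ps2 at 9.86, Plk-ps1 at 9.51, and Txn-ps1 at 9.38.

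Per unit of length, most members were far below their parents. The ratio of mean TPM, member to parent, had a median of 0.0249 over the 104 pairs in which the parent was above 0. It was under 0.01 in 37 pairs, from 0.01 to 0.1 in 36, and from 0.1 to 1 in 22. In the other 9 pairs the member was higher. Mrpl23-ps1 averaged 189 ± 13.1 TPM in RvD1-treated mice and 193 ± 4.13 TPM in controls (SD, n = 3 each), whereas Mrpl23, a mitochondrial ribosomal protein gene, was at 9.96 ± 1.57 and 11.3 ± 2.44 TPM. Nutf2-ps1 averaged 536 ± 85.0 TPM in RvD1-treated mice and 609 ± 31.7 TPM in controls, and Nutf2 at 33.5 ± 10.5 and 31.3 ± 0.934 TPM. The mean TPM of the member was thus 18.0 and 17.7 times that of the parent, although 92.1% and 96.0% of the windows of these members are also in the parent. The ratio was 2.94 for Rps23-ps1, 2.17 for Rpl10-ps3, and 2.51 for Gpr137b-ps, an unprocessed copy of a lysosomal membrane protein gene with 16.5% of its windows in the parent. Nlrp5-ps was at 1.05 TPM on average, and its parent Nlrp5, an oocyte gene, was at 0.015 TPM with 0 counts in the 3 RvD1 libraries. Vamp7, which encodes a SNARE protein of vesicle fusion, is listed at 0 in every library, whereas Vamp7-ps had 0.634, 0.428, and 0.499 CPM with RvD1 and 0.495, 0.575, and 0.434 CPM with vehicle.

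**Figure D2:**
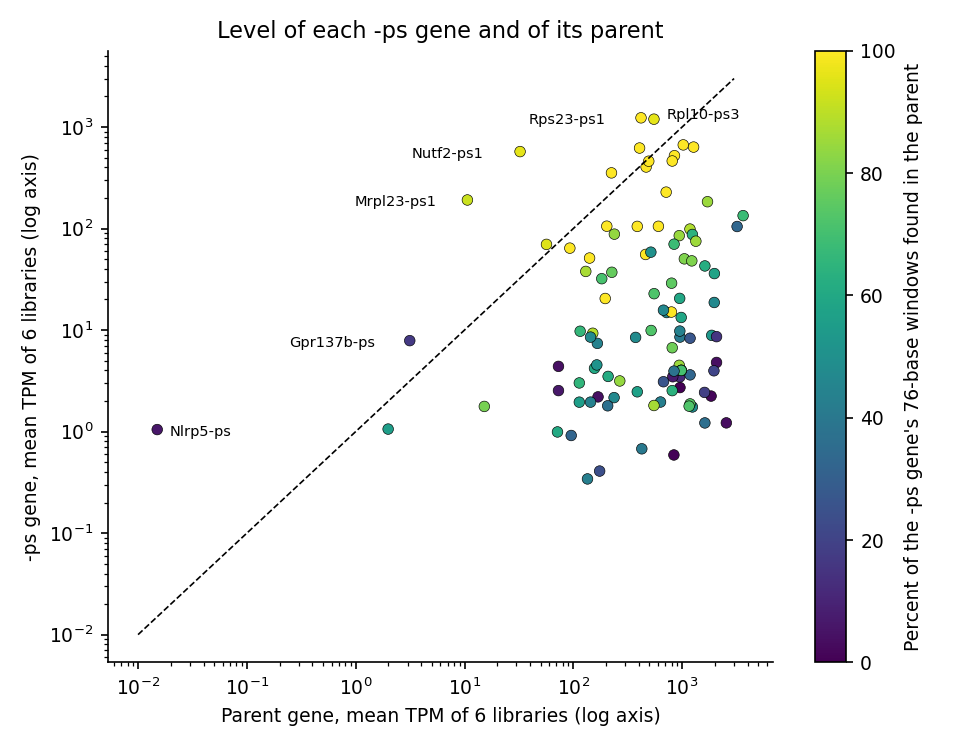
Mean TPM of each member against that of its parent (both log axes, mean of 6 libraries, 104 pairs), colored by the percent of 76-base windows of the member found in the parent, with a dashed line at equal levels. In 9 pairs the member lies above the line, and in the other pairs below it.

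By position, 73 members lay in no other annotated gene, 42 inside an intron of another gene, and 11 overlapped an exon of another gene. Rps23-ps1 overlaps an exon of Gm5148 on the opposite strand, Ube2n-ps1 lies within an intron of Clock on the same strand, and Rps12-ps3 (chromosome 19, 59322290 to 59322783) within an intron of Pdzd8 on the opposite strand. No source used here states that counting took account of the strand, so reads from the 2 strands of such a locus cannot be told apart. The median log2 fold change with RvD1 was −0.28 for members in no other gene, −0.25 for those in introns, and −0.21 for those that overlap exons.

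One experiment of the study asked how RvD1 affects the RNA of MuSCs from injured muscle, and for this set the 3 RvD1-treated mice were compared with the 3 vehicle-treated mice. Total expected counts were between 16148026 and 28149176 per library, and 3 counts correspond to 0.107 to 0.186 CPM, which scales counts to the size of each library. This floor covers counting error only. The MuSC markers, Pax7 and 7 others, summed to between 1946 and 2390 TPM, and all 8 were detected. The 8 leukocyte markers summed to 35.6 to 55.3 TPM with RvD1 and 49.2 to 84.1 TPM with vehicle. All 8 had a lower fitted value with RvD1, and 2 of the 8 had an unadjusted p under 0.05. The 5 fibro-adipogenic markers summed to 233 to 545 TPM with RvD1 and 265 to 310 TPM with vehicle. Of these, 4 had a higher fitted value, and 1 of the 5 had an unadjusted p under 0.05. The part of these other cell types in the results was not tested. With edgeR's quasi-likelihood test and Benjamini-Hochberg adjustment over 14494 genes, 0 of the 123 members tested had an adjusted p under 0.05, and the share over all genes tested was 0%. The smallest adjusted p of a member was 0.971 in edgeR and 0.135 with DESeq2, which also gave 0 members.

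Lower values with RvD1 were more frequent than higher ones. The fitted log2 fold change was below 0 for 89 members and above 0 for 34, with a median of −0.26, compared with 0.01 over all genes tested. By annotated type, 72 of 94 processed pseudogenes tested were below 0, with a median of −0.28, as were the 5 transcribed processed ones and 5 of the 6 protein-coding members. The 18 unprocessed, unitary, or polymorphic members tested were mostly above 0, with 11 above and 7 below and a median of 0.13. The difference between these types was not tested. An unadjusted p under 0.05 was found for 21 members in edgeR. Of these, 18 were lower with RvD1, 14.6% of the members tested, where the share over all genes tested was 1.64%. The other 3 were higher with RvD1, 2.44% of the members, beside 1.83% over all genes tested. They include Ap3s1-ps2 and Smt3h2-ps4, which passed the minimum count only through the RvD1 libraries. The 18 lower members were 10 when vehicle replicate 3 was left out, where the share over all genes was 0.686%, and the 3 higher members were 6 when RvD1 replicate 3 was left out (2.71% over all genes) and 2 without RvD1 replicate 2, vehicle replicate 1, or vehicle replicate 3. The CPM values of the groups did not overlap for 24 members lower with RvD1, 19.5% where all genes gave 4.83%, and for 6 members higher with RvD1, 4.88% where all genes gave 4.8%. The members are not independent of each other or of their parents, since they share reads, and no test over the set was made. Their median standard error was 0.35 on the log2 scale, compared with 0.17 for all genes.

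Members with and without a ribosomal protein parent were mostly lower. A ribosomal protein is the parent of 51 members, which held 60.0% of the counts of the set, and 39 of them were below and 12 above 0, with a median log2 fold change of −0.25. The 51 include the 4 Rpl35a copies, which are a single measurement. An unadjusted p under 0.05 was found for 11 of the 51, all lower with RvD1. Of all genes tested, 1.64% were lower and 1.83% higher at this threshold, which also holds for the counts that follow in the same fit. The 72 other members that were tested had a median of −0.26, and 50 of them were below 0. Among 83 ribosomal protein genes of the files other than -ps genes, 80 were below 0 and 29 had an unadjusted p under 0.05, all 29 lower, with a median log2 fold change of −0.20. None of the 83 had an adjusted p under 0.05 in edgeR. Of the 85 parents tested, 73 were below 0, with a median of −0.17, and 15 had an unadjusted p under 0.05, all lower. This number was 1 without vehicle replicate 2 or vehicle replicate 3, 8 without RvD1 replicate 3, and 33 when RvD1 replicate 2 was omitted. Of all genes, 1.05% were then higher and 0.849% lower without vehicle replicate 2, and 3.95% and 2.88% without RvD1 replicate 2. The 504 tested processed pseudogenes without a -ps symbol had a median of −0.19, with 34 lower and 5 higher at an unadjusted p under 0.05.

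**Figure D3:**
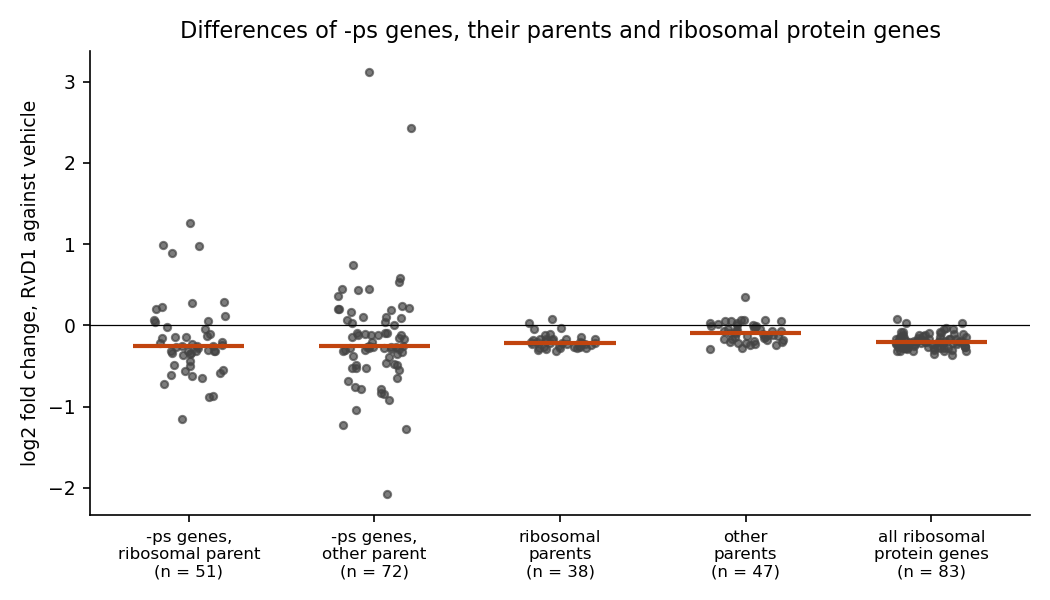
Fitted log2 fold change, RvD1 against vehicle, of -ps genes with a ribosomal protein parent (n = 51) or another parent (n = 72), of their ribosomal (n = 38) and other (n = 47) parents, and of all ribosomal protein genes (n = 83), with 1 point per gene and a line at the median. All 5 medians are below 0, and the -ps genes spread more widely than the parents.

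The share of all expected counts that fell in the 126 members was 0.303%, 0.338%, and 0.311% with RvD1 and 0.355%, 0.365%, and 0.375% with vehicle. The 2 groups did not overlap, and their means were 0.317% ± 0.0183 and 0.365% ± 0.01004 (SD, n = 3). For processed pseudogenes without a -ps symbol the share was 0.766% ± 0.0607 with RvD1 and 0.885% ± 0.0254 with vehicle. The median deviation of the members from their own mean was lowest in RvD1 replicate 1, at −0.15 on the log2 scale, and highest in vehicle replicate 3, at 0.17.

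Among the members higher with RvD1, Rab11b-ps2 had the smallest unadjusted p. It was at 16.8, 15.9, and 18.0 CPM with RvD1 and 9.91, 9.66, and 10.6 CPM with vehicle. The groups did not overlap, and the spread within each was small, and the log2 fold change was 0.75 ± 0.14 (standard error, SE, adjusted p = 0.971 in edgeR). Rab11b itself was at 135, 134, and 135 CPM with RvD1 and 134, 139, and 132 CPM with vehicle, giving a log2 fold change of −0.00 ± 0.08 (SE). On the TPM scale, which also takes in the effective length of a gene in each library, the log2 ratio of Rab11b-ps2 to Rab11b (each value plus a pseudocount of 0.1) was higher with RvD1 by 0.86, and from expected counts by 0.75 (TPM ratio, two-sided exact permutation test, p = 0.1, the lowest value possible with 3 mice per group). As the sequences above show, a read within the aligned bases separates the 2 genes only where it covers the 1 differing base. Of the windows of Rab11b-ps2, 86.9% do not cover it. Added together, the 2 genes were at 152, 150, and 153 CPM with RvD1 and 144, 149, and 143 CPM with vehicle, and the log2 fold change of the sum was 0.06 ± 0.08 (SE).

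The other 4 members with the smallest p among the higher ones had few counts or rested on 1 library. Ap3s1-ps2, a copy of a subunit of the AP-3 vesicle adaptor, had 20.3, 25.3, and 25.3 expected counts with RvD1 and 0, 6.34, and 0 with vehicle, giving a log2 fold change of 3.12 ± 0.90 (SE). Smt3h2-ps4 had 25.6, 34.4, and 20.4 expected counts with RvD1 and 0, 11.4, and 0 with vehicle, giving a log2 fold change of 2.43 ± 0.95 (SE). Both passed the minimum mean count only through the RvD1 libraries, so their selection was not independent of this difference. For both, vehicle replicate 2 was the only vehicle library above 0. When it was left out, the fitted values were 7.44 and 7.59, which depend on the prior count and are no bound. Sumo2, which holds most windows of Smt3h2-ps4, had a mean of 9903 counts, and Ap3s1 was at 82.2 to 107 CPM in the 6 libraries, with a log2 fold change of −0.09 ± 0.11 (SE).

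Rpl38-ps2 was at 18.7, 11.5, and 4.88 CPM with RvD1 and 6.63, 6.61, and 5.65 CPM with vehicle. RvD1 replicate 3 lay below all vehicle libraries, and the log2 fold change of 0.89 ± 0.40 (SE) became 0.39 without RvD1 replicate 1, whereas omitting RvD1 replicate 3 gave 1.25. Its 213 bases are all contained in Rpl38, and the sum of the family had a log2 fold change of 0.04 ± 0.14 (SE). Dynlt1-ps1 was at 38.0, 23.8, and 20.03 CPM with RvD1 and 20.7, 21.1, and 19.0 CPM with vehicle, and its log2 fold change of 0.43 ± 0.22 (SE) was 0.12 without RvD1 replicate 1. Both members were highest in RvD1 replicate 1.

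**Figure D4:**
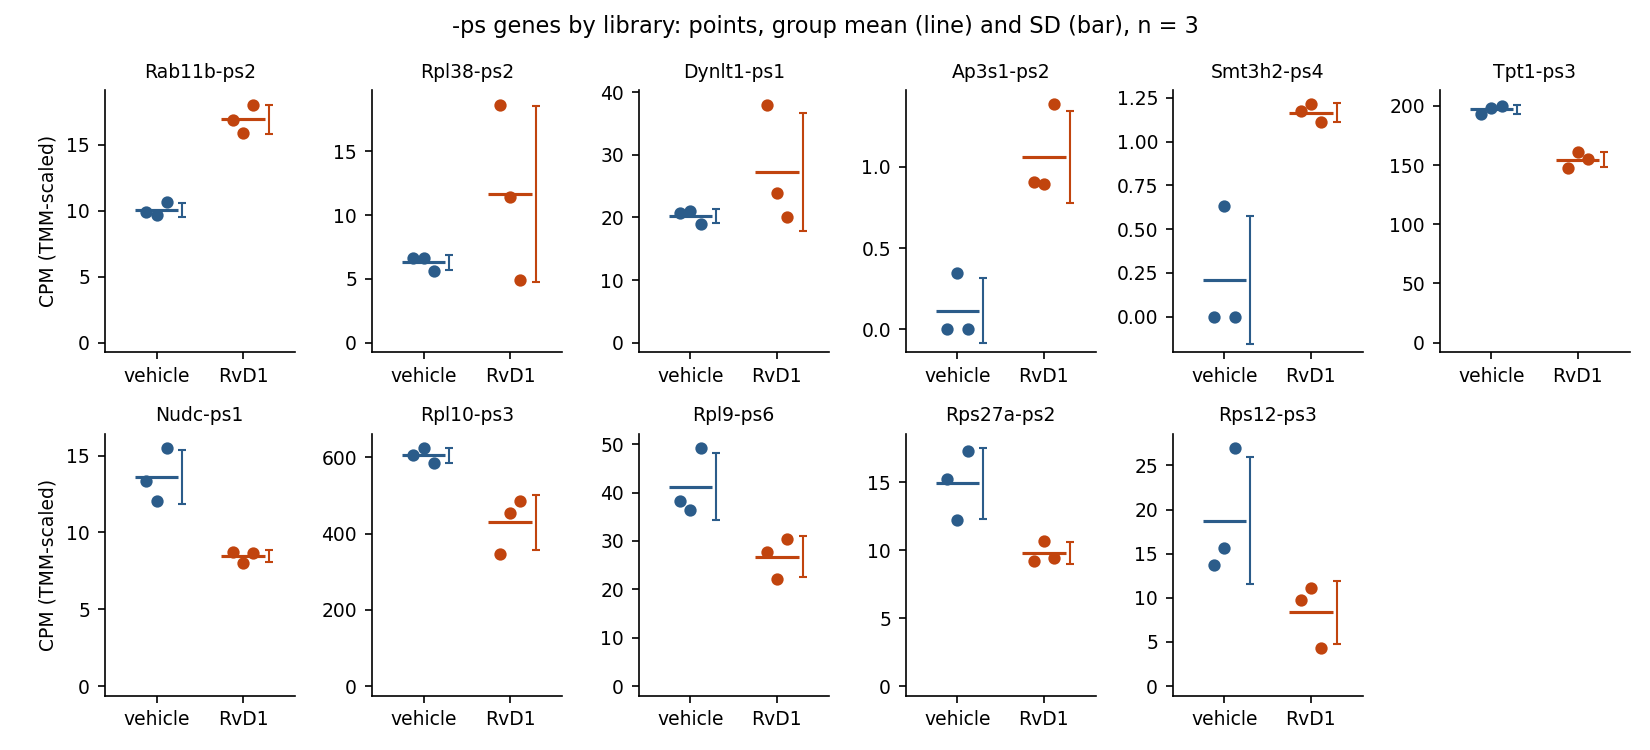
TMM-scaled CPM of 11 members in each vehicle and RvD1 library, with 1 point per library, a line at the group mean and a bar for the SD (n = 3 per group); each panel has its own axis. Rab11b-ps2, Ap3s1-ps2, and Smt3h2-ps4 have all RvD1 libraries above all vehicle libraries, and the 6 panels from Tpt1-ps3 to Rps12-ps3 have them below.

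Among the members lower with RvD1, Tpt1-ps3 had the smallest unadjusted p. It was at 148, 161, and 155 CPM with RvD1 and 193, 198, and 200 CPM with vehicle, giving a log2 fold change of −0.35 ± 0.08 (SE, adjusted p = 0.971 in edgeR). Tpt1 was at 451, 500, and 431 CPM with RvD1 and 512, 565, and 550 CPM with vehicle, giving a log2 fold change of −0.24 ± 0.09 (SE). Both genes were thus lower in every RvD1 library than in any vehicle library, and their log2 ratio of TPM differed by −0.11 (exact permutation test, two-sided, p = 0.3).

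Rpl10-ps3 was at 347, 454, and 487 CPM with RvD1 and 605, 624, and 586 CPM with vehicle, giving a log2 fold change of −0.49 ± 0.13 (SE). Rpl10 was at 270, 271, and 177 CPM with RvD1 and 225, 247, and 303 CPM with vehicle, so that the groups of the parent overlapped. RvD1 replicate 3 had the highest value of the member and the lowest of the parent within its group. The family of Rpl10 and its 5 -ps genes had the smallest unadjusted p of all families of the set, with a log2 fold change of −0.37 ± 0.09 (SE, adjusted p = 0.973 in edgeR).

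Nudc-ps1 was at 8.74, 8.03, and 8.65 CPM with RvD1 and 13.4, 12.01, and 15.5 CPM with vehicle, giving a log2 fold change of −0.69 ± 0.16 (SE), whereas Nudc had one of −0.22 ± 0.16 (SE). Rpl9-ps6 was at 27.7, 22.2, and 30.5 CPM with RvD1 and 38.2, 36.4, and 49.1 CPM with vehicle, giving a log2 fold change of −0.63 ± 0.16 (SE) beside −0.22 ± 0.09 (SE) for Rpl9. Rps27a-ps2, whose parent encodes a fusion of ubiquitin and a ribosomal protein, was at 9.24, 10.7, and 9.43 CPM with RvD1 and 15.2, 12.2, and 17.3 CPM with vehicle, giving a log2 fold change of −0.61 ± 0.18 (SE) beside −0.28 ± 0.12 (SE) for Rps27a. In these 3 the groups did not overlap, and the fitted difference of the member was larger than that of its parent. The differences in log2 ratio of TPM, −0.44, −0.40, and −0.31, had p = 0.2, p = 0.2, and p = 0.1 by the exact permutation test.

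Rps12-ps3 was at 9.73, 11.1, and 4.33 CPM with RvD1 and 13.7, 15.6, and 26.9 CPM with vehicle, and the extreme values were RvD1 replicate 3 and vehicle replicate 3. Its log2 fold change was −1.15 ± 0.36 (SE), beside 0.03 ± 0.11 (SE) for Rps12, although all 494 bases of the member are contained in Rps12. The family of Rps12 with its 23 -ps genes had a log2 fold change of −0.25 ± 0.12 (SE). Without a filter on low counts, the adjusted p of Rps12-ps3 in edgeR was 0.0564.

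**Figure D5:**
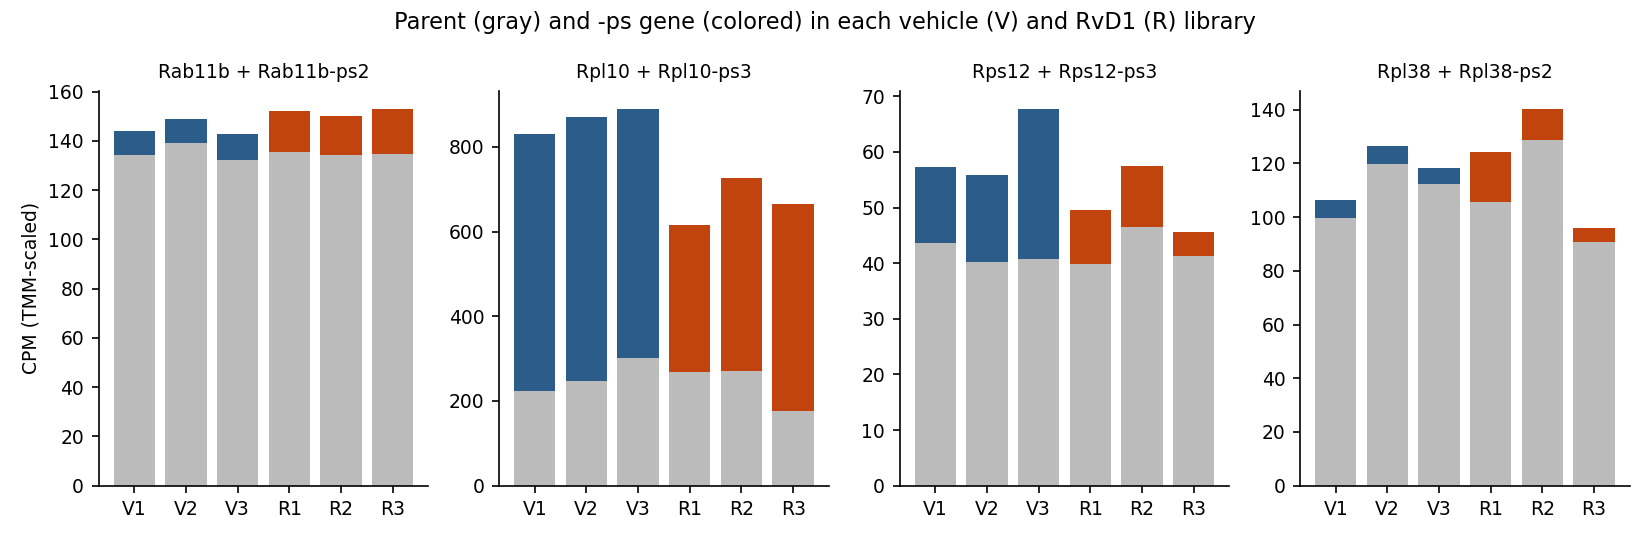
TMM-scaled CPM of the parent (gray) with the member stacked on it (colored) in each of the 3 vehicle (V) and 3 RvD1 (R) libraries, for 4 pairs, from 0. The top of a bar is the sum of both genes, which for Rab11b and Rab11b-ps2 lies between 143 and 153 CPM, while for Rpl10 and Rpl10-ps3 it is lower in every RvD1 library.

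The other members with high counts were mostly lower with RvD1 by fitted value. Rps23-ps1 was at 241, 271, and 228 CPM with RvD1 and 279, 296, and 301 CPM with vehicle, giving a log2 fold change of −0.24 ± 0.09 (SE) beside −0.32 ± 0.10 (SE) for Rps23. Rps13-ps2 had a log2 fold change of −0.37 ± 0.13 (SE), beside −0.27 ± 0.11 (SE) for Rps13, and its groups did not overlap either. The groups overlapped for Nutf2-ps1, Rpl15-ps3, Rps6-ps4, Rpl31-ps8, Ube2n-ps1, and Eif4a-ps4, whose log2 fold changes were −0.26, −0.15, −0.21, −0.14, −0.15, and 0.03. Of the members that exceed their parents, Mrpl23-ps1 had a log2 fold change of −0.12 ± 0.09 (SE), Gpr137b-ps one of −0.17 ± 0.18 (SE), and Nlrp5-ps one of 0.45 ± 0.39 (SE).

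Over all 105 pairs, the log2 ratio of TPM, member to parent, was lower with RvD1 in 67 and higher in 38, with a median difference of −0.13. The exact permutation test gave its smallest possible p of 0.1 for 17 pairs, and after Benjamini-Hochberg adjustment over the pairs the smallest p was 0.618. Among the 18 members with an unadjusted p under 0.05 and a lower value, the parent was also below 0 for 16, and had an unadjusted p under 0.05 for 7. Of all 85 parents tested, 73 were below 0, and 15 had an unadjusted p under 0.05 in edgeR. Log2 fold changes of member and parent had a Spearman correlation of 0.07 over 102 pairs, a description across genes. The fitted difference of the member was farther from 0 than that of the parent in 79 of 102 pairs in which both were tested. The median standard error was 0.35 for the members and 0.11 for the parents.

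Since a sum over a family does not depend on how reads were divided within it, counts of each parent and all its -ps genes were added and tested again. For 20 of the families tested the parent symbol is not in the files, so that only -ps genes were added and reads shared with a source gene such as Sumo2 stay divided. Of 106 families tested, 0 had an adjusted p under 0.05 (smallest 0.973, edgeR), with 0 by DESeq2 as well. An unadjusted p under 0.05 was found for 17 families, 16.0%, where all features of the pooled table gave 3.32%. Of the 17, 16 were among the 86 families with a parent, and the other was that of Smt3h2. The 17 were 2 without vehicle replicate 2, 3 without vehicle replicate 3, and 36 without RvD1 replicate 2. In the table before pooling, 1.05% of all genes were higher and 0.849% lower without vehicle replicate 2. Without RvD1 replicate 2 these shares were 3.95% and 2.88%. The median log2 fold change was −0.17 for families with a parent and 0.08 for those without, with median standard errors of 0.11 and 0.35. Reads divided with pseudogenes that carry other symbols are not covered by these sums.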

How the data were processed

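RNA-Seq was performed on FACS-sorted MuSCs of 6 mice, 3 per group. Per the labels and the paper's Methods, the authors aligned reads to mm10 with STAR 2.5.0a and used RSEM for quantification. Expected counts were deposited as estimates per gene without scaling for depth. TPM and FPKM were deposited after scaling by the authors to transcript length and library total. One stray header line was removed. Members, gene lists, and tests were chosen with earlier results of these data known.

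Expected counts were rounded and tested over the whole table with edgeR 4.0.16 in R 4.3.3 (TMM, filterByExpr by group, quasi-likelihood test, Benjamini-Hochberg adjustment, threshold 0.05). Standard errors followed from each log2 fold change and its test statistic. CPM values are TMM-scaled. Log2 ratios used TPM with a pseudocount of 0.1. Windows of 76 bases of each annotated transcript were searched on both strands of all GENCODE M21 transcripts, and members were aligned to parents with blastn 2.17.0. Rnf170, listed under 2 IDs, was represented by the ID with the higher mean count. Alternatives used limma 3.58.1 with sva 3.50.0 (1 surrogate variable removed), DESeq2 1.42.0, and other settings. The fits were tested on simulated counts with known changes. The smallest exact p for 3 against 3 is 0.1. Nothing states that the mice were paired, and the labels number replicates 1 to 3 in each group. P values measure the spread between these mice.

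Named members were those past the threshold, the 10 highest by count, the 5 with the smallest p in each direction, the 5 with the highest ratio to the parent, 5 of the 18 members with all windows in the parent (those with the highest counts), the 3 on either side of the minimum, Rab11b-ps2, Rps12-ps3, Ap3s1-ps2, Smt3h2-ps4, and their parents. The Rpl35a copies, Ldha-ps2, and the members with whole counts were named after their values were seen. Endothelial marker sums ranged from 3.59 to 8.08 TPM with RvD1 and 3.37 to 10.7 TPM with vehicle, and erythroid sums from 3.06 to 16.4 and 7.05 to 20.6 TPM.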

Additional observations from a re-analysis of the deposited data

How the results depend on the processing

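The number of members with an adjusted p under 0.05 was 0 under all 16 alternatives, and their lowest adjusted p was 0.0564. The members higher with RvD1 at an unadjusted p under 0.05, 3 in edgeR, were 5 without a filter on low counts and with log2(FPKM + 1), and 6 with limma-voom after removal of surrogate variables and with log2(TPM + 1) or log2(TPM + 0.1). The share of all genes so called was 1.83% in edgeR and rose to 2.64%, 2.11%, 5.89%, 3.28%, and 3.26% in these fits. Members lower with RvD1 numbered 17 (TPM, where 1.076% and 1.056% of all genes were lower) to 25 (surrogate variables removed, 5.32%) under the alternatives that kept all libraries. For the parents, 34 had an unadjusted p under 0.05 with surrogate variables removed, where 5.89% of all genes were higher and 5.32% lower. With TPM or FPKM, 7 parents did, where 1.076% (log2(TPM + 1)), 1.056% (log2(TPM + 0.1)), and 1.77% (FPKM) of all genes were lower. The shares higher in these fits are given above. The share of the members differed between groups by −0.101 percentage points when measured in TPM, from 1.09% with vehicle to 0.990% with RvD1. The cause of these changes was not tested.

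With 1 replicate left out, no member was called (0 in each fit). Those higher at an unadjusted p under 0.05 were 2 to 6, where all genes gave 1.05% to 3.95%. Those lower were 10 to 18, where all genes gave 0.686% to 2.88%. Members whose groups did not overlap were 7 to 12 (higher, 5.69% to 9.76% of the members beside 7.58% to 12.03% of all genes) and 29 to 39 (lower, 23.6% to 31.7% beside 7.43% to 11.3%). At an unadjusted p under 0.05, the parents were 1 to 33 and the families 2 to 36, in fits where the shares over all genes moved as given. The families called were 0. The median difference in log2 ratio of TPM ranged from −0.18 to −0.06, the difference in share from −0.0585 to −0.0411 percentage points, and the number of named members above 0 from 6 to 8. Some members were named for a small p in edgeR, and each alternative reused the same libraries or all but 1 of them. This favors an unchanged direction. Of 352 values for 22 named members, 349 kept their direction. The exceptions were Eif4a-ps4, which with 1 replicate left out ranged from −0.016 (RvD1 replicate 2 left out) to 0.074 (RvD1 replicate 3 left out) and was −0.0030 without vehicle replicate 1, and Rpl31-ps8, which ranged from −0.29 to 0.023 (the same replicates left out).

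Deviations of same-numbered libraries had correlations of 0.31, −0.00071, and 0.126. Between differently numbered libraries of the groups, the correlations ranged from −0.246 to 0.173. These few values cannot decide whether the mice were paired. Since nothing states a pairing, the numbers were not taken to pair the mice. With the replicate number as a block, 0 members were called, 5 were higher and 21 lower at an unadjusted p under 0.05 (3.16% and 3.02% of all genes), and 31 parents and 34 families were so. The median log2 ratio difference of −0.13 could not change with this block. The mean of same-numbered differences equals the difference of the group means.

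A minimum mean count of 5 or 20, or a mean CPM of at least 0.5, gave 163, 88, and 128 members. With 50-base windows or up to 1 mismatch, the median share of windows in the parent was 73.9% and 90.4%. At a tolerance of 0.05 counts, 87.1% of values were fractional.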
